A study of Homo sapiens with 16 samples.

Results

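The BCL2 family of apoptosis regulators was described here through 10 genes: MCL1, BCL2L1, BCL2L2, BAX, BAK1, BBC3, PMAIP1, BCL2L11, BID and BAD. They were taken by symbol from a matrix of 25270 genes, and each of the 10 was among the 10600 genes tested. RNA was sequenced from U2OS, an established human osteosarcoma line, after 6 h with CPT, T4 or T5 at 0.5, 2, 5, 10 or 20 µM, or with the solvent DMSO. That gave 5 libraries for each of 3 compounds and 1 DMSO library, all from the same line and the same time point. The series calls T4 and T5 modulators of alternative polyadenylation, the choice among the sites at which the end of an mRNA is cut. CPT is the usual abbreviation of camptothecin, a poison of DNA topoisomerase I, although the labels give only the short form, and they give no structure for T4 or T5.

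The BCL2 family decides whether the outer mitochondrial membrane is opened during apoptosis. Anti-apoptotic members (MCL1, BCL-xL from BCL2L1 and BCL-w from BCL2L2) hold the pore-forming effectors BAX and BAK in check. BH3-only members (PUMA from BBC3, NOXA from PMAIP1, BIM from BCL2L11, BID and BAD) bind the anti-apoptotic proteins or, for some of them, activate the effectors directly.

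The values are FPKM, fragments scaled by the length of the transcript and the mapped total of the library, so levels of different genes can be compared per length. Every condition had 1 library, and nothing says that libraries came from separate cultures. A p-value here sets an effect against how far single libraries lie from a fitted line or difference, a spread that can be technical and that takes in any curvature. The total depth is unknown, and the depth relative to DMSO, taken from the step sizes among low values, was 0.639 (5 µM T5) to 0.996 (0.5 µM T5). Of 9 markers of osteosarcoma and mesenchymal cells, 7 had a median FPKM of at least 1 and the list summed to 1069 to 1777 FPKM, with COL1A1, SPARC, VIM and FN1 high, COL1A2 at or below 0.133 and TWIST1 listed at 0. RUNX2 and ALPL of that list were low, at medians of 1.17 and 1.67. Epithelial markers summed to 2.31 to 4.52, and 2 of 4 had a median of at least 1 as well, EPCAM (1.67) and KRT14 (1.31). Blood cell markers summed to 0.0295 to 0.549 and endothelial markers to 0.110 to 0.244. In such bulk RNA, fewer cells expressing a gene and less RNA per cell cannot be told apart.

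Promoter windows are shown for the 4 members with the widest range over the libraries (BCL2L11, BBC3, BAK1 and PMAIP1). They are the 250 bases before the annotated start, from RefSeq on GRCh38.p14, 5′ to 3′ on the gene's strand. RefSeq windows were found for 8 of the 10 members, with BCL2L2 and MCL1 named only. The PMAIP1 window is chr18:59899746-59899995 (plus strand), that of BBC3 chr19:47232668-47232917 (minus strand), that of BCL2L11 chr2:111120664-111120913 (plus strand) and that of BAK1 chr6:33580277-33580526 (minus strand). Capitals mark matches on either strand to the GC box GGGCGG, the E-box CACGTG, the forkhead site GTAAACA, the CRE core ACGTCA or the TATA box TATAAA.
PMAIP1: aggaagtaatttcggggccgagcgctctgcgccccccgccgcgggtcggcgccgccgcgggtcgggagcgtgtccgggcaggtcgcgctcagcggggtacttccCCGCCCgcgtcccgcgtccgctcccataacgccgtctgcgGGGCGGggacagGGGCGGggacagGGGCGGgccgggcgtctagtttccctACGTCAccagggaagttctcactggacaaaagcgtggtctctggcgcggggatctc
BBC3: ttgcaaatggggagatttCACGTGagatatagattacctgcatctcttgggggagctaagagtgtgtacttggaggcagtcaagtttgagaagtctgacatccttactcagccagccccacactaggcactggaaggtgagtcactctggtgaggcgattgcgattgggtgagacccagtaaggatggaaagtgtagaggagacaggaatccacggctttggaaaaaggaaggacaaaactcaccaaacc
BCL2L11: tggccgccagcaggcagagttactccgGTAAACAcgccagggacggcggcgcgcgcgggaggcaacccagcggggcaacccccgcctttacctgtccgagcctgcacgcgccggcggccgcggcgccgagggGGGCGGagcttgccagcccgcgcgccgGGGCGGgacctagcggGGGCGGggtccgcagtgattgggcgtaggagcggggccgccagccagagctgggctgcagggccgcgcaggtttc
BAK1: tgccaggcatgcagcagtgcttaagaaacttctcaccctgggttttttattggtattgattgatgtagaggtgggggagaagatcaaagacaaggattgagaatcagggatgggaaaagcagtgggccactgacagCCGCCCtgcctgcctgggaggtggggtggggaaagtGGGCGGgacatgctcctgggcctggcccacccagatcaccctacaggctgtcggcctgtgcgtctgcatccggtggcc

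The PMAIP1 window held 4 GC boxes and 1 CRE core, the BCL2L11 window 3 GC boxes and 1 forkhead site, the BAK1 window 2 GC boxes and the BBC3 window 1 E-box. Of all 35116 RefSeq windows of this length, 42.6% held a GC box, 6.34% an E-box, 2.98% the forkhead site, 7.10% the CRE core and 10.7% the TATA box. A match describes the letters of the window and is not a bound site. In the 4 windows shown no match overlaps another, and the BAX window, not printed, held 4 E-boxes and 1 GC box.

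In DMSO the members spanned a wide range of levels. BAX was highest at 62.6 FPKM, followed by MCL1 at 46.4, BCL2L1 at 34.0, PMAIP1 at 23.8, BAD at 23.5, BAK1 at 17.1, BCL2L2 at 11.2, BID at 7.73, BCL2L11 at 2.15 and BBC3 at 1.62. With a single DMSO library, no spread is available to separate neighbours in this order, and PMAIP1 and BAD were closest. Over all 16 libraries the ratio of the highest to the lowest value was 12.4 for BCL2L11, 8.26 for BBC3, 6.36 for BAK1, 5.16 for PMAIP1, 4.08 for BCL2L2 and 3.19 for BCL2L1. BAX (2.08), MCL1 (2.02), BID (1.90) and BAD (1.59) varied least.

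**Figure D1:**
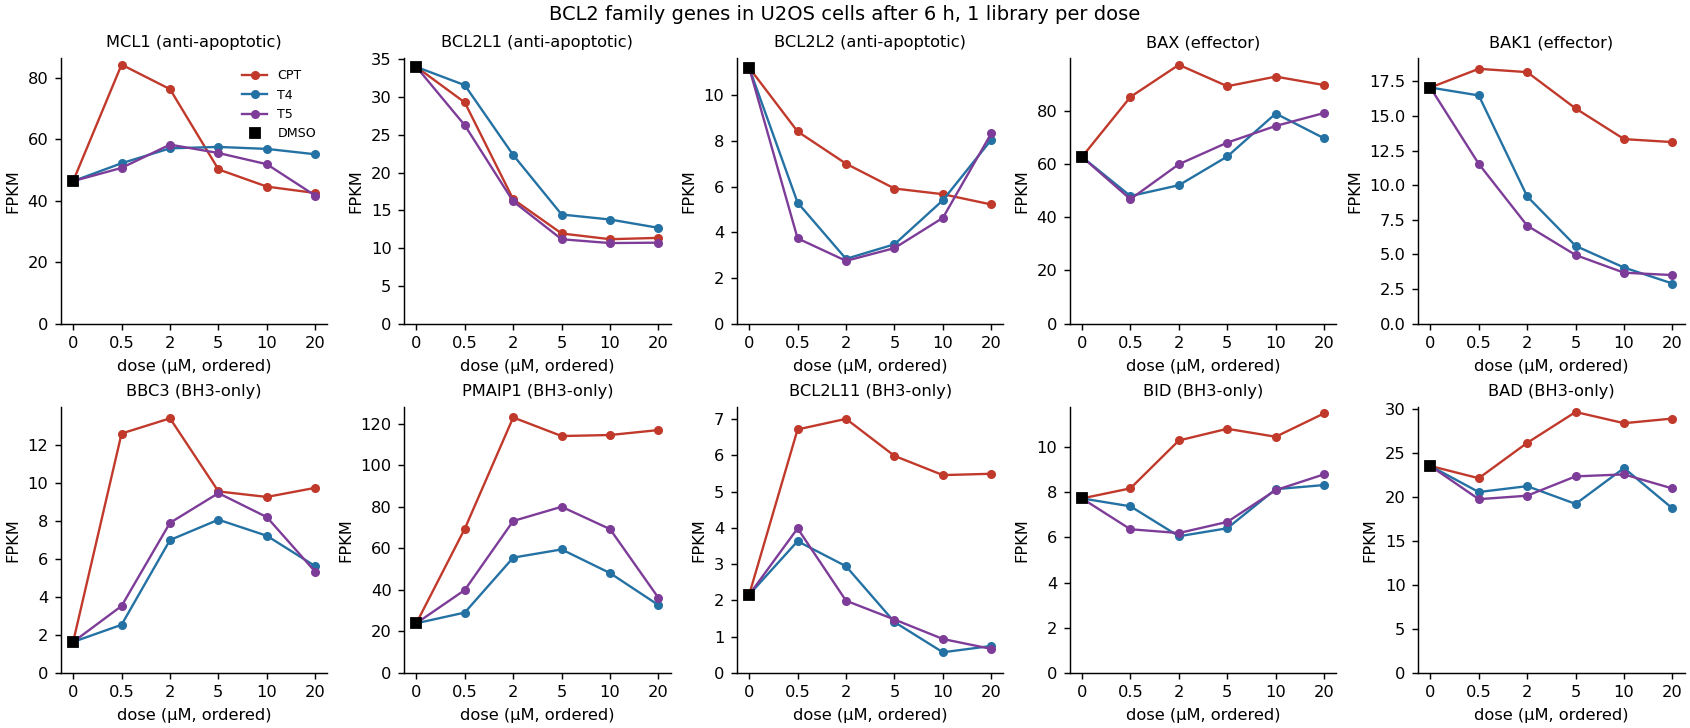
FPKM of the 10 members (y axis, from 0, a panel for each gene) against dose in µM (x axis, in order and not to scale), with a line for each compound and the single DMSO library as the starting value. Each point is 1 library. PMAIP1 with CPT reaches 123 FPKM at 2 µM and is at 117 at 20 µM, while its T4 and T5 lines turn down after 5 µM, and BAK1 goes down along the T4 and T5 lines to 2.90 and 3.51.

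Dose trends asked whether a member rose or fell with the dose of a compound, from DMSO to 20 µM. With CPT, BCL2L1 and BCL2L2 fell while PMAIP1 and BID rose. With T4, BCL2L1, BAK1 and BCL2L11 fell and BBC3 rose, and with T5, BCL2L1, BAK1 and BCL2L11 fell and no member rose. The counts were 2 of 10 members rising and 2 falling with CPT, against 17.9% and 25.8% of all genes tested, 1 rising and 3 falling with T4, against 14.5% and 32.4%, and 0 rising and 3 falling with T5, against 18.2% and 34.5%. A list of 10 genes at the background share would give counts of this order, so nothing about the family is read from them. The median change over the 10 members was 0.39, -0.03 and -0.05, against -0.14, -0.27 and -0.29 over all genes tested. Median centring of the libraries moved the latter by 0.45, 0.65 and 0.67, and the split over all genes went from 1899 rising and 2739 falling to 3572 and 1643 with CPT, from 1533 and 3438 to 4293 and 1847 with T4, and from 1929 and 3658 to 4388 and 1992 with T5. With quantile normalization these splits were 2341 and 1910, 2806 and 2101, and 3013 and 2344. Directions given here are those of the deposited values. Calls that depend on the scaling are given with the member, and signs of uncalled values can depend on it too. On linear dose a single one of these trend calls was left, that of BAK1 with T4. Of all genes tested, 0 were then called with CPT, 1427 with T4 and 568 with T5. When the 10 µM library was left out, 1 of all genes was called with CPT. Without a filter on low values the calls of PMAIP1 with CPT, BBC3 with T4 and BCL2L11 with T4 and T5 were lost. The changes below are fitted from 0 to 20 µM on the log2(FPKM + 1) scale, which understates the change of low genes, with standard errors over 6 libraries and limma adjusted p-values over all genes tested.

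BCL2L1, which makes the survival protein BCL-xL, had 34.0 FPKM in DMSO. With CPT it had 29.3, 16.5, 11.9, 11.2 and 11.3 FPKM at the 5 ascending doses, with T4 31.6, 22.3, 14.4, 13.8 and 12.7, and with T5 26.3, 16.2, 11.2, 10.7 and 10.7. Every treated library was below DMSO, and with each compound the values levelled off from 5 µM. The fitted change was -1.70 ± 0.25 with CPT (adjusted p = 0.0105), -1.53 ± 0.18 with T4 (adjusted p = 0.0016) and -1.72 ± 0.23 with T5 (adjusted p = 0.0023). The CPT call was lost without the 10 µM library (-1.67, adjusted p = 0.0537), a setting in which 1 of all 10600 genes was called. All 3 calls were lost on linear dose, at -1.30 (adjusted p = 0.320), -1.27 (0.0643) and -1.31 (0.115). ABALON shares 1424 exon bases with BCL2L1 on the opposite strand and was not matched to a row of the matrix, so reads from the shared bases cannot be told apart.

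MCL1, the short-lived survival protein whose mRNA and protein both turn over fast, moved differently. It had 46.4 FPKM in DMSO, 84.3, 76.3, 50.2, 44.6 and 42.5 with CPT, 52.2, 57.0, 57.5, 56.8 and 55.1 with T4, and 50.7, 58.2, 55.5, 51.9 and 41.6 with T5. The CPT libraries were highest at 0.5 and 2 µM and at or near the DMSO value from 5 µM, and all 5 T4 libraries were above DMSO. None of the trends passed the test, at -0.55 ± 0.39 with CPT (adjusted p = 0.285), 0.23 ± 0.11 with T4 (0.135) and -0.08 ± 0.19 with T5 (0.743). Over the 5 CPT libraries alone, without DMSO, MCL1 fell by 1.10 ± 0.16 (adjusted p = 0.0206). The T5 trend of MCL1 changed sign with median centring of the libraries (0.59, adjusted p = 0.101), and the T4 trend was called with it (0.88, adjusted p = 0.00322).

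BCL2L2, which makes BCL-w, fell with CPT and had its lowest values at low doses of T4 and T5, with higher ones at high doses. Its FPKM was 11.2 in DMSO, 8.42, 7.01, 5.92, 5.67 and 5.22 with CPT, 5.30, 2.84, 3.48, 5.41 and 8.06 with T4, and 3.74, 2.75, 3.31, 4.64 and 8.34 with T5. Lowest values were at 2 µM T4 and 2 µM T5, and the CPT values went down at each dose. The CPT trend was -0.93 ± 0.18 (adjusted p = 0.0132), while the T4 and T5 trends, -0.33 ± 0.64 and -0.19 ± 0.71, were not called and turned positive with both median centring and quantile normalization. A test of curvature, the squared term on a dose scale running from 0 to 1, was called for both: 5.57 ± 0.64 with T4 (adjusted p = 0.0030) and 6.07 ± 0.72 with T5 (adjusted p = 0.0049). A positive value can be a dip, as here, or a fall that levels off. The CPT call was lost without 10 µM (-0.94), with median centring (-0.48) and with quantile normalization (-0.54), and the T5 curvature call without 2 µM (6.08, adjusted p = 0.0532). BCL2L2 shares 813 exon bases on the same strand with the read-through gene BCL2L2-PABPN1, whose FPKM was 20.1 in DMSO and 10.6 to 19.6 in treated libraries, so the split between them is uncertain. Summed with the read-through, the level was 31.3 in DMSO, 16.4 to 21.6 with CPT, 13.5 to 27.7 with T4 and 13.5 to 27.4 with T5.

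Of the effectors, BAK1 fell with T4 and T5, and BAX was above DMSO in every CPT library. BAX had 62.6 FPKM in DMSO, 85.1, 97.2, 89.1, 92.7 and 89.6 with CPT, 47.9, 52.0, 62.8, 78.9 and 69.6 with T4, and 46.7, 59.8, 68.0, 74.2 and 79.1 with T5. The 0.5 and 2 µM libraries of T4 and T5 were below DMSO, and their 10 and 20 µM libraries above it. The trends were 0.40 ± 0.19 with CPT (adjusted p = 0.130), 0.44 ± 0.22 with T4 (0.140) and 0.54 ± 0.19 with T5 (0.0509), and none was called. Over treated libraries alone, BAX rose with T4 (0.67 ± 0.16, adjusted p = 0.0177) and T5 (0.74 ± 0.09, adjusted p = 0.00278), and with median centring all 3 trends were called, at 0.85, 1.09 and 1.21, as was the curvature with CPT (-1.71, adjusted p = 0.0234).

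BAK1, which makes the other effector, had 17.1 FPKM in DMSO. It had 18.4, 18.2, 15.5, 13.3 and 13.1 with CPT, 16.5, 9.19, 5.62, 4.05 and 2.90 with T4, and 11.5, 7.08, 4.96, 3.68 and 3.51 with T5. The T4 and T5 values fell at every step, to 0.170 and 0.206 of the DMSO level at 20 µM, whereas the lowest CPT library was at 0.769 of it. The trend was -2.41 ± 0.21 with T4 (adjusted p = 0.0012) and -2.09 ± 0.21 with T5 (adjusted p = 0.0012), and with CPT it was -0.46 ± 0.16 (adjusted p = 0.058). Over the 5 CPT libraries alone, BAK1 fell by 0.53 ± 0.12 (adjusted p = 0.0284). The T4 call held under each alternative tried, and the T5 call under each except linear dose (-1.69, adjusted p = 0.0855).

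The BH3-only genes BBC3 and PMAIP1 were above DMSO in every treated library, in patterns that peaked or levelled off within the dose range. BBC3 had 1.62 FPKM in DMSO, 12.6, 13.4, 9.55, 9.26 and 9.74 with CPT, 2.53, 6.99, 8.06, 7.21 and 5.61 with T4, and 3.51, 7.89, 9.46, 8.19 and 5.31 with T5. The T4 and T5 values were highest at 5 µM and the CPT value at 2 µM. At 0.5 µM the level was 7.77 times that of DMSO with CPT, 1.56 times with T4 and 2.17 times with T5. The trends were 1.21 ± 0.83 with CPT (adjusted p = 0.269), 1.54 ± 0.49 with T4 (adjusted p = 0.0404) and 1.42 ± 0.58 with T5 (0.0805), and the curvature was -3.92 ± 0.78 with T4 (adjusted p = 0.0124) and -4.94 ± 0.49 with T5 (adjusted p = 0.0036). A negative value can be an arch or a rise that levels off. The T4 trend was not called without the 0.5 µM (1.41), 5 µM (1.44) or 10 µM (1.51) library or over treated libraries alone (0.83), the T4 curvature was not called without 2 µM (-3.44, adjusted p = 0.0903) or 20 µM (-3.60, adjusted p = 0.0712), and the T5 trend was called without 20 µM (2.34, adjusted p = 0.0131) and with both scalings.

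PMAIP1, which makes NOXA, a partner of MCL1, had 23.8 FPKM in DMSO. It had 69.4, 123, 114, 115 and 117 with CPT, 29.0, 55.5, 59.4, 48.0 and 32.6 with T4, and 39.9, 73.1, 80.0, 69.2 and 36.0 with T5. The CPT values reached a plateau from 2 µM, at 4.79 to 5.16 times the DMSO level, and those of T4 and T5 peaked at 5 µM, at 2.49 and 3.36 times, and were 1.37 and 1.51 times at 20 µM. The trend was 1.90 ± 0.58 with CPT (adjusted p = 0.0392), 0.68 ± 0.48 with T4 (adjusted p = 0.275) and 0.83 ± 0.64 with T5 (adjusted p = 0.309). Curvature was called in all 3 series, at -4.62 ± 0.95 with CPT (adjusted p = 0.0385), -4.01 ± 0.65 with T4 (0.0070) and -5.54 ± 0.51 with T5 (0.0034). The CPT trend was not called without 0.5 µM (2.15), 5 µM (1.86) or 10 µM (1.97), or over treated libraries alone (0.60, adjusted p = 0.128) or with quantile normalization (1.71). Its CPT curvature was not called without 2, 5, 10 or 20 µM (adjusted p between 0.0640 and 0.203), settings in which 0 of all genes were called. It was also not called with quantile normalization (-4.78, adjusted p = 0.0643). Without the 20 µM library, PMAIP1 rose with T4 (1.46, adjusted p = 0.0322) and with T5 (1.93, adjusted p = 0.0166), and the T4 curvature was not called (-3.35, adjusted p = 0.0553).

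Curvature was called for 1 of 10 members with CPT, against 17.9% of all genes in either direction, for 3 with T4 (BCL2L2, BBC3 and PMAIP1), against 28.5%, and for 6 with T5, against 36.0%. Besides those given above, the T5 calls were MCL1 (-1.54 ± 0.25, adjusted p = 0.0092), BCL2L1 (1.67 ± 0.45, adjusted p = 0.036) and BID (1.36 ± 0.40, adjusted p = 0.048). On linear dose 0 members and 0 of all genes were called in each of the 3 series. Without a filter on low values the calls of PMAIP1 with CPT and T4, BBC3 with T4, and BCL2L1 and BID with T5 were lost, and 0 of all genes were called with CPT. Of the T5 calls, 1 was left without the 2 µM library, that of PMAIP1, a setting in which 347 of all genes were called. MCL1 was also not called without 20 µM (-1.25), BCL2L1 not without 5, 10 or 20 µM (1.35, 1.66 and 1.11) or with median centring (0.96), and BID not without 5, 10 or 20 µM (1.35, 1.39 and 1.95) or with either scaling (0.65 and 0.48). With median centring, the split of curved genes over the whole table went from 1052 positive and 845 negative to 876 and 1900 with CPT, from 1817 and 1201 to 1387 and 1634 with T4, and from 2693 and 1124 to 1314 and 1991 with T5 (1523 and 1231 with quantile normalization).

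BCL2L11, which makes the activator BIM, was higher than in DMSO with CPT and fell with T4 and T5. It had 2.15 FPKM in DMSO, 6.72, 7.01, 5.99, 5.46 and 5.49 with CPT, 3.63, 2.94, 1.40, 0.564 and 0.739 with T4, and 3.99, 1.99, 1.47, 0.931 and 0.657 with T5. Every CPT library was above DMSO, at 2.53 to 3.25 times its level. With T4 and T5 the 0.5 µM library was above it, at 1.69 and 1.85 times, and the 10 and 20 µM libraries were below it. The trend was -1.36 ± 0.39 with T4 (adjusted p = 0.029), -1.27 ± 0.33 with T5 (adjusted p = 0.0189) and 0.61 ± 0.48 with CPT (adjusted p = 0.336). The T4 call was lost without 0.5 µM (-1.14), 5 µM (-1.36), 10 µM (-1.14) or 20 µM (-1.40), the T5 call without 10 µM (-1.22) or 20 µM (-1.18), and both with median centring (-0.71 and -0.60) and quantile normalization (-0.68 and -0.59).

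On GRCh38 (GENCODE release 29), BCL2L11 shares 727 exon bases with MIR4435-2HG on the opposite strand, a noncoding gene listed in the matrix as MIR4435-1HG. That gene had 127.6 FPKM in DMSO, 63.2 to 73.4 with CPT, 114.0 to 189 with T4 and 118 to 187 with T5, many times the level of BCL2L11. Its values were lower than DMSO with CPT, where BCL2L11 was higher, and higher than DMSO in the 0.5 to 10 µM libraries of T4 and T5. Whether the libraries kept the strand is not stated, so reads from the shared bases cannot be told apart and their part in the BCL2L11 values was not tested.

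BID and BAD moved least. BID, which links death receptors to mitochondria, had 7.73 FPKM in DMSO, 8.18, 10.3, 10.8, 10.5 and 11.5 with CPT, 7.38, 6.05, 6.41, 8.14 and 8.33 with T4, and 6.36, 6.20, 6.69, 8.10 and 8.80 with T5. All CPT values were above DMSO, and the T4 and T5 values were below it up to 5 µM and above it from 10 µM. It rose with CPT (0.52 ± 0.16, adjusted p = 0.0390), a call lost without 0.5 µM (0.48), 5 µM (0.50), 10 µM (0.56) or 20 µM (0.56), or over treated libraries alone (0.38). The T4 (0.11 ± 0.23) and T5 (0.25 ± 0.22) trends from DMSO were not called with the values as deposited and were called with either scaling (0.74 to 0.92). Over treated libraries alone, the T5 trend of BID was called (0.45 ± 0.14, adjusted p = 0.0416).

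BAD, whose protein is held inactive by phosphorylation in the presence of survival factors, had 23.5 FPKM in DMSO, 22.1 to 29.7 with CPT, 18.7 to 23.3 with T4 and 19.7 to 22.6 with T5. All T4 and T5 values were below DMSO, and 4 of 5 CPT values were above it. The trends were 0.38 ± 0.13 with CPT (adjusted p = 0.0557), -0.17 ± 0.16 with T4 (0.405) and -0.01 ± 0.14 with T5 (0.953), and with median centring they became 0.83 (adjusted p = 0.0110), 0.48 (0.0571) and 0.66 (0.0122). BAD shares 404 exon bases with GPR137 on the opposite strand (15.4 to 31.7 FPKM, lowest in DMSO and highest at 20 µM CPT), and strand is not stated, so reads from the shared bases cannot be told apart.

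**Figure D2:**
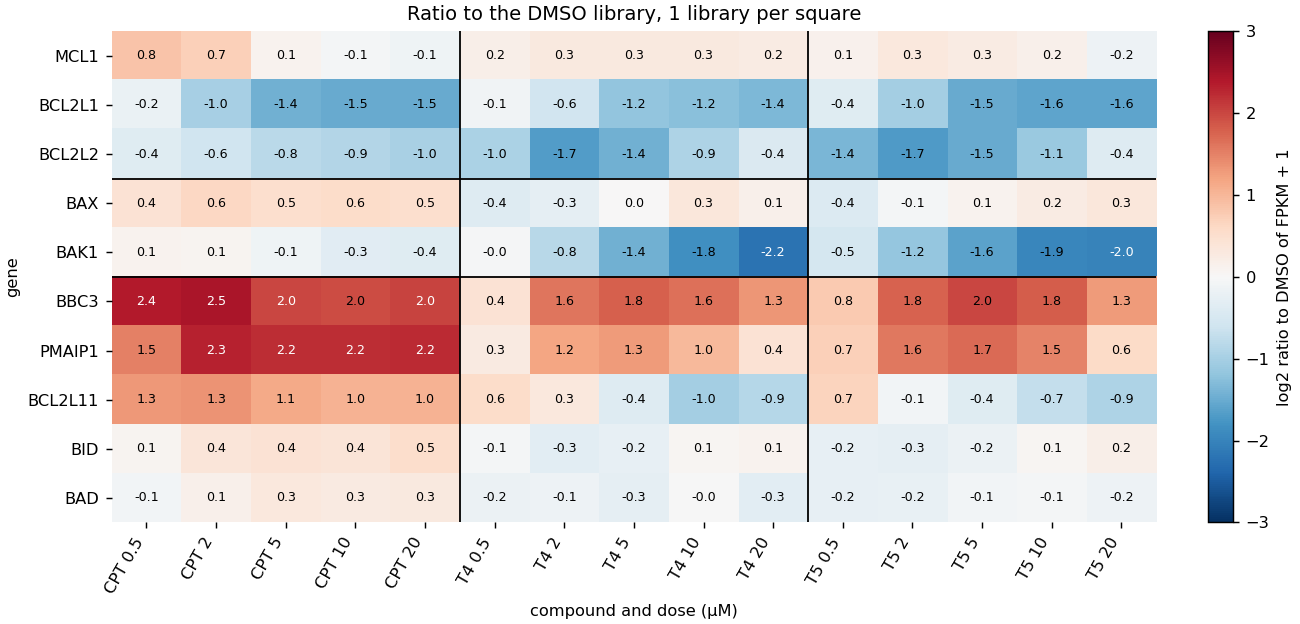
Log2 ratio of each member's FPKM + 1 to that in DMSO (colour and printed value) for the 15 treated libraries (columns, in order of compound and dose), with the members in rows. BBC3 and PMAIP1 are above DMSO in all 15 libraries, and BAK1 is below it in the 3 highest doses of every compound, lowest at 20 µM T4.

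At the lowest dose, 0.5 µM, 3 of 10 members (BCL2L11, BBC3 and PMAIP1) were at least 2-fold above DMSO on FPKM + 1 with CPT, against 2.45% of all genes tested, and 0 were 2-fold below, against 6.81%. With T4 at 0.5 µM, 0 members were 2-fold higher or lower, against 0.368% and 1.03% of genes. With T5, 0 members were higher, against 1.21%, and BCL2L2 was lower, against 4.41%. At 20 µM the CPT members were the same 3 genes higher, against 6.12%, and BCL2L1 lower, against 21.0%, while BBC3 was higher (1.20% of genes with T4, 2.44% with T5) and BCL2L1 and BAK1 lower (22.9% and 26.5%) with both T4 and T5. Each such ratio rests on 1 library on each side and has no replicate check.

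The comparison of T4 and T5 with CPT at the same doses asked which members differ between the compounds, without the DMSO library. At matched doses, 7 of 10 members were lower with T4 than with CPT and 1, BCL2L1, was higher, against 36.9% and 28.3% of all genes tested. With T5, 7 were lower and 0 higher than with CPT, against 37.6% and 25.0%, and the 7 were the same genes: BCL2L11, BAX, BAK1, BBC3, PMAIP1, BID and BAD, which are the pro-apoptotic ones among the 10. Family genes outside the 10 did not keep this split. Of 8 tested, 5 were lower and 2 higher with T4, and 4 lower and 2 higher with T5. The anti-apoptotic BCL2A1 was lower with T4 than with CPT at every dose (7.69 to 18.9 FPKM against 19.3 to 33.1). BNIP3L was higher with T4 and T5 than with CPT at every dose. The median difference over the 10 members was -0.50 for T4 and -0.48 for T5, against -0.09 and -0.10 over all genes tested. T4 and T5 share the CPT libraries in these comparisons, so the pair of results is not independent.

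Each of the 7 was lower than CPT at all 5 doses with both compounds. The mean difference in log2(FPKM + 1), over 10 libraries, was -1.45 ± 0.21 for BCL2L11 with T4 (adjusted p = 0.0013) and -1.45 ± 0.19 with T5 (adjusted p = 0.0009). For PMAIP1 it was -1.27 ± 0.12 with T4 (adjusted p = 0.0005) and -0.88 ± 0.16 with T5 (adjusted p = 0.0035). For BAK1 it was -1.15 ± 0.24 and -1.32 ± 0.16, for BAX -0.56 ± 0.11 and -0.48 ± 0.10, for BID -0.45 ± 0.10 and -0.46 ± 0.08, and for BAD -0.37 ± 0.09 and -0.34 ± 0.06, with adjusted p from 0.0007 to 0.0107. BBC3 had the least firm difference: its -0.81 ± 0.25 with T4 (adjusted p = 0.0258) was not called without 2 µM (-0.80) or 20 µM (-0.83) or with quantile normalization (-0.74, adjusted p = 0.0528), and its -0.64 ± 0.22 with T5 (adjusted p = 0.0420) was not called without 0.5 µM (-0.41), 2 µM (-0.63) or 20 µM (-0.61) or with quantile normalization (-0.49, adjusted p = 0.124). Without a filter on low values neither was called.

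Of the anti-apoptotic members, BCL2L1 with T4 alone had a called difference. Differences of BCL2L2 were not small: with T5 it was -0.49, against -0.34 for BAD, and CPT was above T4 and T5 at 4 of 5 doses. BCL2L1 was higher with T4 than with CPT at all 5 doses (0.24 ± 0.07, adjusted p = 0.0202), a call lost without 2 µM (0.20), 5 µM (0.24) or 10 µM (0.23), and its difference with T5 was -0.08 ± 0.05 (95% interval -0.21 to 0.05). The difference of MCL1 was -0.04 with T4 (-0.45 to 0.37) and -0.16 with T5 (-0.49 to 0.18), and that of BCL2L2 was -0.36 with T4 (-0.89 to 0.18) and -0.49 with T5 (-1.08 to 0.11). With median centring the T5 difference of BCL2L1 (0.11) and both of MCL1 (0.05 and 0.03) lay above 0. Without the 20 µM libraries, BCL2L2 was lower than with CPT by a called difference (-0.58, adjusted p = 0.0280, with T4 and -0.75, adjusted p = 0.00906, with T5). With median centring the T5 difference of BAX (-0.30, adjusted p = 0.0624) and of BBC3 (-0.46, adjusted p = 0.128) was not called, and the split over all genes went from 2645 higher and 3984 lower to 3986 and 2521 (3623 and 3064 with quantile normalization).

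**Figure D3:**
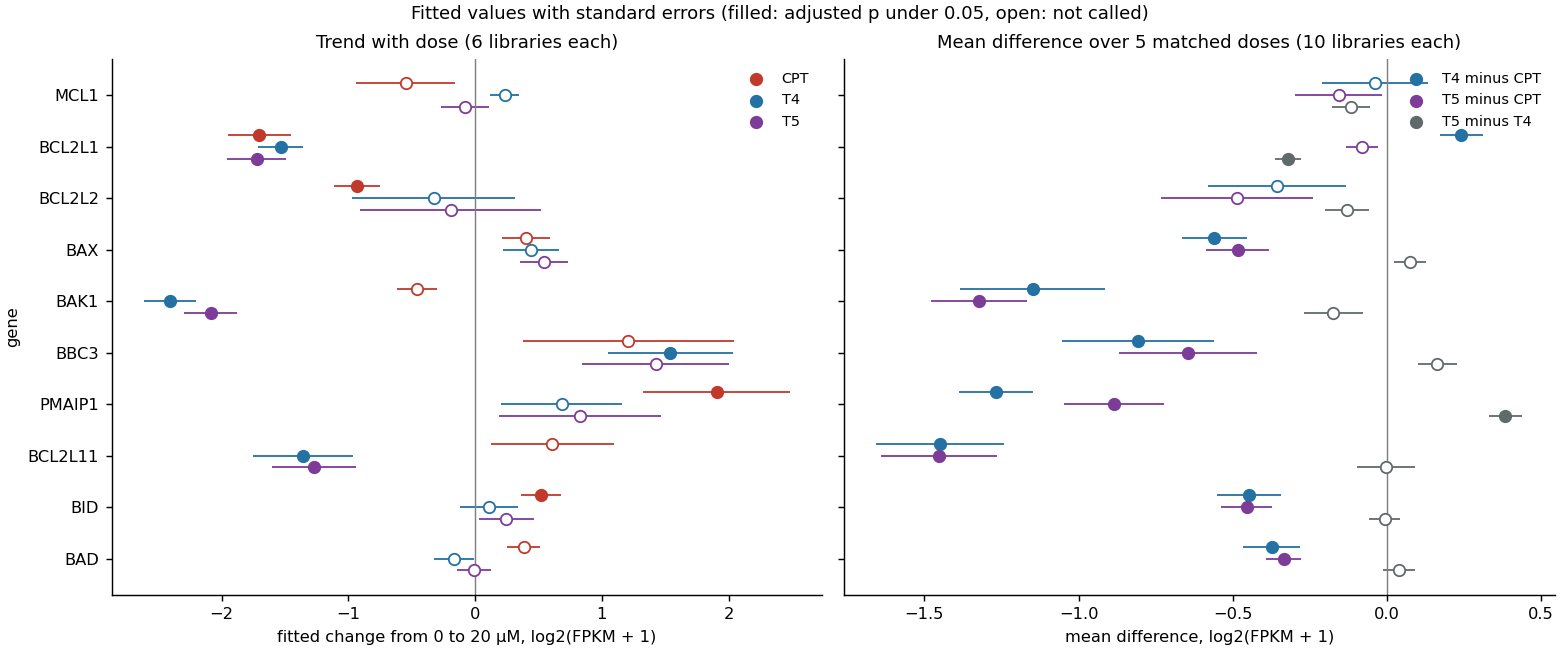
Fitted changes of the 10 members in log2(FPKM + 1), with bars of 1 standard error: dose trends from 0 to 20 µM and mean differences at matched doses. Filled points passed an adjusted p of 0.05. BAK1 has the lowest T4 and T5 trends (-2.41 and -2.09), and the 7 pro-apoptotic members lie below 0 in both comparisons with CPT.

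The slope over the 5 doses was compared too, as a change from 0.5 to 20 µM. Against CPT, 1 of 10 members had a higher slope with T4 (MCL1, 1.17 ± 0.19, adjusted p = 0.0111), against 1.16% of all genes, and 2 had a lower slope (BAK1, -1.64 ± 0.19, adjusted p = 0.0033, and BCL2L11, -1.36 ± 0.33, adjusted p = 0.0406), against 6.61%. With T5, BAX had a higher slope than with CPT (0.70 ± 0.14, adjusted p = 0.0212), against 2.54%, and BAK1 (-0.997 ± 0.22, adjusted p = 0.0268) and BCL2L11 (-1.23 ± 0.22, adjusted p = 0.0126) had lower ones, against 6.19%. The MCL1 slope difference with T5 was 0.83 ± 0.26 (adjusted p = 0.0822). It was called with quantile normalization (0.94, adjusted p = 0.0375), as was that of BAX with T4 (0.77, adjusted p = 0.0189), and that of BCL2L2 with T5 was called with either scaling (1.69 and 1.67). On linear dose none of the slope differences of members against CPT was called, and of all genes 45 were called with T4 and 83 with T5. The BAK1 and MCL1 calls with T4 were lost without 10 µM (-1.67, adjusted p = 0.0557 and 1.11, adjusted p = 0.105), a setting in which 0 of all genes were called. That of BCL2L11 was lost when any 1 of the 5 doses was left out (-1.69 to -1.21) or with either scaling. With T5, BAK1 was not called without 0.5 µM (-0.59), 2 µM (-1.07), 5 µM (-0.99) or 10 µM (-0.97), BCL2L11 not without 5, 10 or 20 µM (-1.23, -1.24 and -1.34), and BAX not without 5, 10 or 20 µM (0.69, 0.70 and 0.74) or with median centring (0.83). Over all genes the split of slope calls went from 123 higher and 701 lower to 241 and 339 with median centring and 323 and 446 with quantile normalization for T4, and from 269 and 656 to 454 and 451, and 573 and 601, for T5.

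T5 was then set against T4, 2 compounds whose structural relation the labels do not give. At matched doses 1 of 10 members was higher, PMAIP1 (0.38 ± 0.05, adjusted p = 0.0055), and 1 lower, BCL2L1 (-0.32 ± 0.04, adjusted p = 0.0048), against 6.05% and 26.5% of all genes tested. Both held at all 5 doses, with PMAIP1 between 36.0 and 80.0 FPKM with T5 and between 29.0 and 59.4 with T4. For the other 8 members the 95% intervals of the difference were -0.26 to 0.03 for MCL1, -0.30 to 0.04 for BCL2L2, -0.23 to 0.22 for BCL2L11, -0.40 to 0.05 for BAK1, -0.04 to 0.19 for BAX, -0.13 to 0.11 for BID, -0.09 to 0.16 for BAD and 0.02 to 0.31 for BBC3 (adjusted p = 0.0836). Without 20 µM, BBC3 (0.22, adjusted p = 0.0372) and BAK1 (-0.27, adjusted p = 0.0464) were called as well. With median centring the split over all genes went from 641 higher and 2807 lower to 2622 and 1166 (1067 and 1351 with quantile normalization), and BBC3 (0.26, adjusted p = 0.0222) and BAX (0.18, adjusted p = 0.0307) were called, BBC3 with quantile normalization as well (0.25, adjusted p = 0.0394). Slopes of T5 and T4 differed for 0 members and 0 of all genes by limma, with 419 genes at an unadjusted p under 0.05, and BAK1 was the member with the lowest unadjusted p (0.0246, difference 0.64 ± 0.24).

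Summed over each class, which treats FPKM of its members as additive per length, the balance shifted most with CPT. The anti-apoptotic sum (MCL1, BCL2L1 and BCL2L2) was 91.6 FPKM in DMSO and the BH3-only sum 58.9, a ratio of BH3-only to anti-apoptotic of 0.643. With CPT this ratio was 0.976, 1.80, 2.50, 2.74 and 2.92 at ascending doses, with T4 0.708, 1.13, 1.25, 1.15 and 0.869, and with T5 0.911, 1.42, 1.71, 1.62 and 1.18. It was higher at each CPT dose than at the one before and peaked at 5 µM with T4 and T5, the same dose at which PMAIP1 and BBC3 peaked. Most of the rise of the BH3-only sum was PMAIP1. From DMSO to 20 µM CPT the sum went from 58.9 to 173 FPKM and PMAIP1 from 23.8 to 117. At 5 µM PMAIP1 was 59.4 of 94.5 FPKM with T4 and 80.0 of 120 with T5. The sums hold only the members. BCL2A1, an anti-apoptotic gene outside them, had 12.5 FPKM in DMSO, 19.3 to 33.1 with CPT, 7.69 to 18.9 with T4 and 13.8 to 33.4 with T5. With BCL2A1 counted, these ratios would be lower and MCL1 would make up less of its class. BH3-only genes outside the members, such as BIK, are left out too. These are mRNA sums and say nothing of protein.

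PMAIP1 exceeded MCL1, its protein partner, in 4 of 5 CPT libraries, 1 of 5 T4 libraries (5 µM) and 3 of 5 T5 libraries (2, 5 and 10 µM). The ratio of PMAIP1 to MCL1 was 0.514 in DMSO, 2.75 at 20 µM CPT, 1.03 at 5 µM T4 and 1.44 at 5 µM T5. BAX to BAK1 went from 3.67 in DMSO to 6.83 at 20 µM CPT, 24.0 at 20 µM T4 and 22.5 at 20 µM T5. MCL1 made up 50.6% of the anti-apoptotic sum in DMSO, 71.9% at 20 µM CPT, 72.7% at 20 µM T4 and 68.6% at 20 µM T5.

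**Figure D4:**
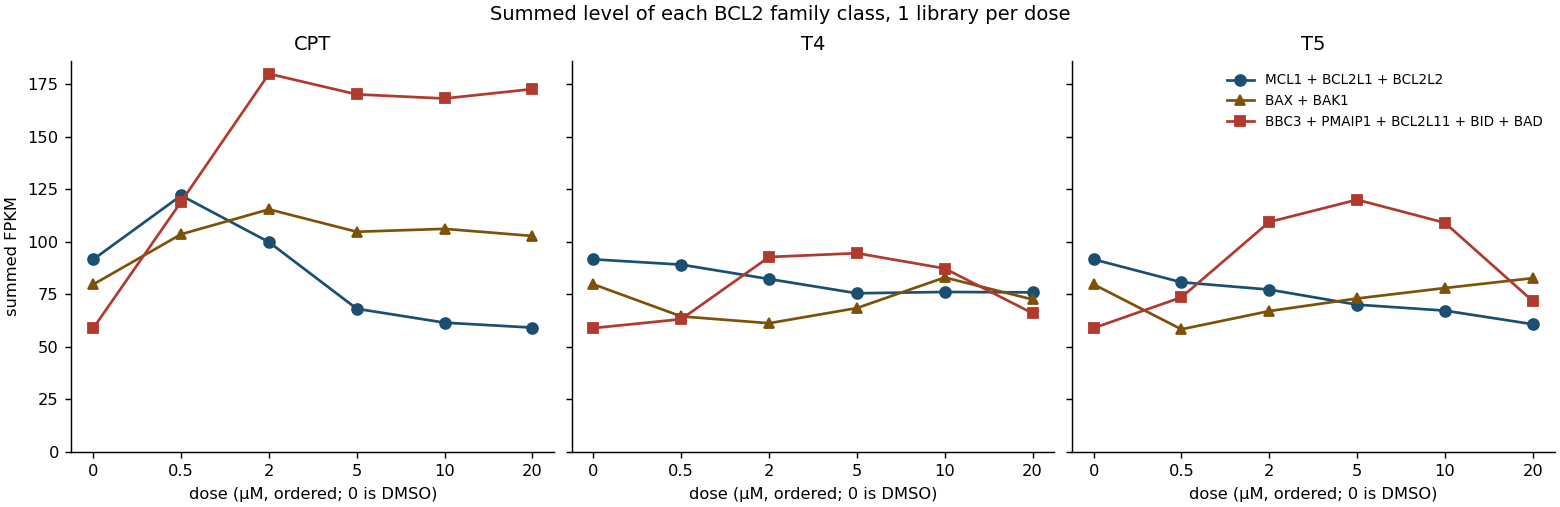
Summed FPKM of the anti-apoptotic, BH3-only and effector members (y axis, from 0) against dose in µM (x axis, in order and not to scale), with a panel for each compound, 1 library per point and DMSO as the starting value. The BH3-only sum with CPT reaches 180 at 2 µM and is 173 at 20 µM, while with T4 and T5 it goes back to 65.9 and 71.8 at 20 µM, near the 58.9 of DMSO.

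The other genes of the pathway are given as lists, whose counts of dose trends stand against 17.9% of all genes tested rising and 25.8% falling with CPT, 14.5% and 32.4% with T4, and 18.2% and 34.5% with T5. Their medians stand against -0.14, -0.27 and -0.29 over all genes. The CPT calls of every list gene named below were lost without the 10 µM library, a setting in which 1 of all genes was called. Further losses are given with the gene.

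Of 13 further BCL2 family genes, 8 were tested: 3 rose and 2 fell with CPT, 1 rose and 1 fell with T4, and 2 rose and 1 fell with T5, with medians of 0.20, -0.21 and 0.02, and the T4 median positive with either scaling. With median centring 3, 3 and 4 rose and 1 fell in each, and with quantile normalization 3, 3 and 4 rose and 2, 1 and 1 fell. BIK, a BH3-only gene, rose with CPT (2.05 ± 0.31), from 0.214 FPKM in DMSO to 4.79 at 20 µM, and was at 0.128 to 0.556 with T4 and T5. BOK, another BAX-like gene, fell with all 3 compounds (-1.04 ± 0.14, -1.48 ± 0.19 and -1.94 ± 0.28), from 26.1 FPKM in DMSO to 13.2, 8.84 and 5.84 at 20 µM. BNIP3L rose with CPT (0.58 ± 0.14, a call lost without 0.5 µM), T4 (0.81 ± 0.14) and T5 (0.79 ± 0.15). BCL2 fell with CPT (-0.69 ± 0.16), a call lost with median centring and without 0.5 µM. Its T4 (-0.76 ± 0.31) and T5 (-0.50 ± 0.26) trends were not called. BCL2L12 rose with CPT (0.79 ± 0.13) and T5 (0.62 ± 0.14), and its T4 trend (0.21 ± 0.12) was called with either scaling (0.85 and 0.47). The T5 trend of BCL2A1 (1.14 ± 0.42) was likewise called with either scaling (1.81 and 1.42). Its CPT (0.33 ± 0.49) and T4 (-0.22 ± 0.43) trends were not called.

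Among the apoptosome and caspase genes, 10 of 13 were tested, and 6 fell with CPT, 4 fell and 1 rose with T4, and 5 fell and 1 rose with T5, with medians of -0.82, -0.68 and -0.91. The initiator CASP8 fell with each compound (-1.95 ± 0.35, -1.73 ± 0.39 and -1.90 ± 0.46). APAF1, the scaffold of the apoptosome, fell with CPT (-1.27 ± 0.39) and T5 (-1.15 ± 0.30), and its T4 trend of -0.80 ± 0.35 was not called. Both calls were lost with median centring (-0.82 and -0.48) and without 0.5 or 10 µM, the CPT call also without 5 µM and the T5 call also with quantile normalization (-0.48). With median centring the counts became 2 falling and 2 rising with CPT, 3 and 2 with T4, and 2 and 3 with T5, and with quantile normalization 2 and 1, 2 and 2, and 2 and 3.

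Of 10 inhibitors of apoptosis and their antagonists, 8 were tested, and 4 fell and 1 rose with CPT, while 4 fell and 0 rose with T4 and with T5, with medians of -1.26, -0.78 and -0.99. BIRC2 fell with all 3 (-1.91 ± 0.30, -1.72 ± 0.17 and -1.47 ± 0.16). DIABLO, which makes the antagonist Smac, fell with CPT (-1.21 ± 0.17), T4 (-1.82 ± 0.16) and T5 (-1.95 ± 0.16). It went to 11.1, 6.84 and 6.24 FPKM at 20 µM from 24.2 in DMSO. XIAP fell with CPT (-1.44 ± 0.30), and its T4 (-0.51 ± 0.31) and T5 (-0.71 ± 0.32) trends were not called. With median centring 3, 3 and 2 fell and 1 rose in each, and with quantile normalization 3, 3 and 2 fell and 0 rose.

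Of 10 mitochondrial partners of the family, 3 rose and 1 fell with CPT and with T4, and 3 rose and 3 fell with T5, with medians of 0.01, -0.20 and -0.26. These counts turned with the scaling: with median centring 5, 5 and 4 rose and 0, 0 and 1 fell, and with quantile normalization 0 rose and 2 fell with each compound. MFN2, which joins outer membranes, fell with each compound (-0.95 ± 0.16, -1.13 ± 0.20 and -1.40 ± 0.19), and the CPT (-0.50) and T4 (-0.48) calls were lost with median centring.

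Of 8 tested genes of MCL1 protein turnover (10 listed, 2 of them other names of listed genes), 2 fell with CPT, 3 with T4 and 5 with T5, and 0 rose, with medians of -1.22, -0.79 and -0.98. With median centring 1, 2 and 1 fell and 0, 1 and 1 rose, and with quantile normalization 1, 2 and 0 fell and 0 rose. BTRC fell with each (-1.80 ± 0.59, -1.43 ± 0.30 and -1.52 ± 0.39). Its CPT call was lost with median centring (-1.35), with quantile normalization (-1.36) and without 0.5 or 5 µM, and its T5 call with quantile normalization (-0.81) and without 0.5 or 10 µM.

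Of 9 transcription factors and regulators known for BH3-only genes, 7 were tested, and 2 rose and 1 fell with CPT, and 1 rose and 3 fell with T4 and with T5, with medians of 0.32, -0.19 and -0.10. With median centring 3, 2 and 3 rose and 1, 3 and 2 fell, and with quantile normalization 2, 1 and 2 rose and 1, 3 and 2 fell. MYC rose with CPT (0.75 ± 0.20), T4 (1.79 ± 0.26) and T5 (1.73 ± 0.47), and its CPT call was lost without 0.5 or 5 µM and its T5 call without 0.5 or 10 µM. FOXO3 fell with each (-1.63 ± 0.33, -1.51 ± 0.31 and -1.57 ± 0.29), a call lost with quantile normalization for T4 and T5. DDIT3 (-1.72 ± 0.20 and -1.13 ± 0.32) and TRIB3 (-2.48 ± 0.28 and -1.91 ± 0.18), both of the integrated stress response, fell with T4 and T5, and the T5 call of DDIT3 was lost with either scaling and without 20 µM. Their CPT trends, 0.02 ± 0.19 and 0.04 ± 0.27, were not called.

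Over the 16 libraries, which share 1 DMSO library and differ in depth, BCL2L11 and BAK1 were the closest pair of members (Pearson r = 0.91), followed by BBC3 and PMAIP1 (0.87), BAX and BID (0.84) and BID and BAD (0.82). For the 3 members with the largest SD of log2(FPKM + 1), the genes most alike were sought among 6740 others with an SD of at least 0.3, and those most like BAK1 were PISD (0.994), USF1 (0.994) and NSUN5 (0.993). Those most like BCL2L11 were RNF122 (0.987), MNT (0.987) and E2F2 (0.985), and those most like PMAIP1 were MAGEA6 (0.969), PDXP (0.968) and TUBB4B (0.966). These are descriptions over 16 points with no test.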

How the data were processed

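The authors deposited gene-level FPKM for the 16 libraries in 1 matrix. The submitters' processing notes list GSNAP and Cufflinks with hg19 and GRCh37, giving none of them a role. For versions, annotation, filters and strand, the sources used here give nothing, and gene-level values do not show isoforms. The matrix held 25270 genes after leaving out 2 inner header lines, 1 incomplete line and 220 repeated lines. A total depth and counts are not recoverable from FPKM, so no count test and no counting interval is given. Relative depth was read from steps of values below 0.2 FPKM, on a grid of 0.02 log2 units.

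From the deposited FPKM, log2(FPKM + 1) was taken, and the 10600 genes whose FPKM averaged 1 or more were tested. Models were fitted in R 4.3.3 with limma 3.58.1 (tables read with the package data.table, version 1.17.8), allowing a mean-variance trend. Tests were 2-sided, at 0.05 after Benjamini-Hochberg adjustment over all genes tested. Trends and curvature used log2(1 + dose / 0.5 µM) over DMSO and 5 libraries, matched differences used dose as a block, and slope differences used a compound by dose term. Plots were drawn with matplotlib 3.10.9 under Python 3.11.15, with numpy 2.4.6 and pandas 2.3.3 for the tables, and the fits were tested on simulated data. The members and lists were chosen with earlier results of these data known. All 10 members are named in each comparison, with up to 4 genes of each other list by size of change, called or not (some are not reported here), and the 3 genes most alike to each of the 3 members with the largest SD of log2(FPKM + 1). BOK, BNIP3L and others are given for comparisons in which they come under that rule, and values of a named gene in the other compounds stand beside them. Alternatives were a pseudocount of 0.1, no filter, median centring, quantile normalization, linear dose, trends without DMSO and leaving out each dose. RefSeq windows are on GRCh38.p14, while gene overlaps come from GENCODE release 29, which is not the build named for the matrix, so they were used only for names and shared bases.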

Additional observations from a re-analysis of the deposited data

Results flagged for a closer look

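For 6 results the dose slope of a member differed between compounds by a direct test of the difference (limma, over 10 libraries, adjusted over all genes tested), as a change from 0.5 to 20 µM in log2(FPKM + 1). Between T4 and CPT the slope difference was 1.17 for MCL1, which went down through the CPT doses from 84.3 to 42.5 FPKM and stayed between 52.2 and 57.5 with T4. It was -1.36 for BCL2L11 and -1.64 for BAK1, which went from 16.5 to 2.90 FPKM with T4 and from 18.4 to 13.1 with CPT. Between T5 and CPT it was -1.23 for BCL2L11, -0.997 for BAK1 and 0.70 for BAX, which went from 46.7 to 79.1 FPKM with T5 and from 85.1 to 89.6 with CPT. T4 and T5 share the CPT libraries, and each of the 6 calls was lost when at least 1 dose was left out. With 10 µM left out, 0 of all genes were called with T4 and 22 with T5.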

How the results depend on the processing

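Of the 10 members, the number called moved with the setting, and the moves that were larger in proportion are given here. Smaller ones are left out, such as that of the T4 trend with median centring, from 4 to 6 (4971 to 6140 of all genes). Without a filter on low values the number called was 2 for the T4 trend (4 with the filter), 0 for CPT curvature (1) and 1 for T4 curvature (3). Of the 20739 genes then tested, 5042, 0 and 2107 were called, against 4971, 1897 and 3018 of 10600 with the filter. With median centring it was 6 for the T5 trend (3), 2 for CPT curvature and 4 for T5 against T4 at matched doses (2). Over all 10600 genes these counts were 6380 (5587), 2776 (1897) and 3788 (3448). With quantile normalization it was 2 for the CPT trend (4), 0 for CPT curvature and 5 for the T5 against CPT slope (3). Over all genes these counts were 4251 (4638), 974 (1897) and 1174 (925). On linear dose it was 0 for the CPT trend, 1 for the T4 trend, 0 for the T5 trend, 0 for each curvature and 0 for the slopes of T4 and of T5 against CPT. Over all genes the linear trends were called for 0, 1427 and 568, each curvature for 0, and the slopes for 45 and 83. Over treated libraries alone it was 5 for the T5 trend, with 6083 of all genes called. Leaving out a dose gave 0 to 4 for the CPT trend, 2 to 4 for the T4 trend, 2 to 4 for the T5 trend, 0 to 3 for CPT curvature, 2 to 3 for T4 curvature and 1 to 8 for T5 curvature. In the same order, it gave 1 to 4925, 3174 to 4880, 3770 to 5367, 0 to 3436, 632 to 3490 and 347 to 5232 of all genes. At matched doses it gave 6 to 8 for T4 against CPT, 6 to 7 for T5 against CPT and 2 to 4 for T5 against T4, and for the slopes 0 to 3 against CPT with T4 and with T5. Of all genes, the matched comparisons then called 5726 to 6820, 5519 to 6700 and 1941 to 3430, and the slopes 0 to 1994 with T4 and 22 to 1822 with T5. Among values called in at least 1 of the settings compared, 1 changed sign: the T5 trend of BAD was -0.01 as deposited and 0.66 with median centring (adjusted p = 0.0122, limma). Over all alternatives, 74 further member values changed sign with no call in either setting. Dropping a dose also leaves fewer libraries, and the cause of these changes was not tested. With a pseudocount of 0.1, all 120 member values kept their side of the threshold. No paired analysis was possible because the labels give no replicate numbers and each condition has 1 library, so the block in the matched comparisons is the dose and not a replicate.

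Each condition has 1 library, so no difference between a single dose and DMSO has a replicate check. Depth is unknown, so low values such as those of BCL2L11 at high T4 and T5 doses have no counting interval. FPKM is relative to the mapped total, and the median of the tested genes was below that of DMSO by up to 0.63 on the log2 scale in treated libraries, so directions of small changes depend on the scaling.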
